A study of Mus musculus with 9 samples.

Results

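A group of 9 genes of sarcoplasmic reticulum calcium handling were followed in RNA-seq data from mouse hearts at embryonic day (E) 10.5 after deletion of *Ctcf*, which encodes a zinc finger protein that organizes chromatin loops. The 9 genes were *Ryr2*, *Atp2a2*, *Pln*, *Casq2*, *Slc8a1*, *Trdn*, *Jph2*, *Hrc* and *Calr*. They were chosen by name, with earlier results of these data known, and make up 9 of the 14011 genes of the deposited table. All 9 had values in every library. Controls carried no Cre and are given in the labels as *Ctcf* fl/fl and in the study's methods as *Ctcf* fl/+. Heterozygotes were *Ctcf* fl/+; *Nkx2.5-Cre*/+ and homozygotes were *Ctcf* fl/fl; *Nkx2.5-Cre*/+, all on a mixed strain background. The *Nkx2.5-Cre* driver deletes floxed DNA in cardiac progenitors and their descendants, so part of the heart keeps *Ctcf*, and any comparison with controls also includes the driver. Each of the 3 libraries per genotype came from polyadenylated RNA of a pool of 6 hearts, and n = 3 pools per genotype throughout.

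In heart muscle, calcium that enters the cell during the action potential opens release channels of the sarcoplasmic reticulum (SR), and the calcium that flows out starts contraction. Relaxation follows when a calcium pump returns calcium to the SR lumen and an exchanger of the plasma membrane moves the remainder out of the cell. Both the store and its junctions with the plasma membrane are built up during development, and mutations in several of these genes cause inherited arrhythmia or cardiomyopathy. *Ryr2* encodes the cardiac release channel. *Trdn* (triadin) and *Casq2* (cardiac calsequestrin, the main calcium buffer of the SR lumen) form a complex with it, and *Hrc* encodes a histidine-rich luminal calcium-binding protein. *Jph2* (junctophilin) ties the SR to the plasma membrane. *Atp2a2* encodes the SERCA pump and *Pln* its inhibitor phospholamban. *Slc8a1* encodes the sodium-calcium exchanger, a plasma membrane protein, and *Calr* encodes calreticulin, a calcium-binding chaperone of the endoplasmic reticulum (ER) that is made in many cell types.

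In homozygotes the release channel gene *Ryr2* fell to 46.1% of the control mean, the exchanger gene *Slc8a1* to 66.1%, the pump inhibitor gene *Pln* to 73.5% and the junction gene *Jph2* to 77.6%. The buffer gene *Casq2* rose to 162% of the control mean. *Atp2a2*, *Hrc*, *Trdn* and *Calr* did not pass the test against controls. Against heterozygotes *Atp2a2* and *Hrc* were also lower. Between heterozygotes and controls none of the 9 genes passed the test.

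The start regions of the 5 genes called between homozygotes and controls are shown first, with that of *Calr* for comparison, because the deleted protein binds DNA in a sequence-dependent way. Windows of 300 bases, from 250 before to 50 after the annotated start, were taken from RefSeq on GRCm38.p6, and each is written 5′ to 3′ on the strand of its gene. They were at chr13:12106896-12107195 (minus strand) for *Ryr2*, chr17:81738338-81738637 (minus strand) for *Slc8a1*, chr10:53337436-53337735 (plus strand) for *Pln*, chr2:163397944-163398243 (minus strand) for *Jph2*, chr3:102086165-102086464 (plus strand) for *Casq2* and chr8:84846882-84847181 (minus strand) for *Calr*. Capitals mark matches to 1 of 7 motifs searched on both strands.
Ryr2: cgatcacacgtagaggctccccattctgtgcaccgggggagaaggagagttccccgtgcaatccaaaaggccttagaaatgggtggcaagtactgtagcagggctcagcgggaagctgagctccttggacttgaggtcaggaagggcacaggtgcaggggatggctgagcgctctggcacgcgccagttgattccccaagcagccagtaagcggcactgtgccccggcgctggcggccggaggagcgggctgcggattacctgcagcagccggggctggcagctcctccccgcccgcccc
Slc8a1: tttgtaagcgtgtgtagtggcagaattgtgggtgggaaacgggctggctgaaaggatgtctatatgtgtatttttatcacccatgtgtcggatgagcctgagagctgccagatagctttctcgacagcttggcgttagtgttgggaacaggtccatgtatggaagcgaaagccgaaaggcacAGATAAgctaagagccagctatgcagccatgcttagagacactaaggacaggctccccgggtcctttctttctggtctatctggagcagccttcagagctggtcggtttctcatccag
Pln: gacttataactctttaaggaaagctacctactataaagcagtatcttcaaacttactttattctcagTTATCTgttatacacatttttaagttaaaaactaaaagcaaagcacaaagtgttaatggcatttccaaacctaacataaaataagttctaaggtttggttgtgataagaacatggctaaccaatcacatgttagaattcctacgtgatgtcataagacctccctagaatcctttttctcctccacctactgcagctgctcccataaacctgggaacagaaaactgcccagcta
Jph2: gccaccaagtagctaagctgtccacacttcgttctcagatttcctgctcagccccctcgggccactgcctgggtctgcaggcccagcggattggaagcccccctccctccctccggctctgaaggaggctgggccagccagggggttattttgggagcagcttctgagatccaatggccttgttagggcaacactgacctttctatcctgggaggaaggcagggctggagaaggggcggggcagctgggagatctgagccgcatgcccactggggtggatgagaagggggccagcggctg
Casq2: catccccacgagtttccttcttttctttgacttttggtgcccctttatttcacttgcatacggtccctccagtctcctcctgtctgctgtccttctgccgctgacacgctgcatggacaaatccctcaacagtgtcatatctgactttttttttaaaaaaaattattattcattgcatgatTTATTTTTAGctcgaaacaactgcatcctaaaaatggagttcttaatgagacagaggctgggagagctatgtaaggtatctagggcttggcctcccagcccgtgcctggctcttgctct
Calr: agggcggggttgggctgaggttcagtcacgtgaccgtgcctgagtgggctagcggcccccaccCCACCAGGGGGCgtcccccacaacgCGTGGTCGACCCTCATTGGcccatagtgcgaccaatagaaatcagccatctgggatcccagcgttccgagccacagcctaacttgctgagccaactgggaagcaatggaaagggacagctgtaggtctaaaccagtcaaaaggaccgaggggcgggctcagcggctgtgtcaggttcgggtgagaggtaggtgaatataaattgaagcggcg

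The motifs were the core of the CTCF motif (CCA, any 2 bases, AG, any 2 bases, GGC), a GATA site (AGATAA), an NKX2-5 site (TNAAGTG), a T-box site (AGGTGT), an ER stress element (CCAAT, any 9 bases, CCACG), the MEF2 site and the CArG box. Among all 32817 windows of this kind, 2.43% held the CTCF core, 11.2% the GATA site, 11.5% the NKX2-5 site, 13.7% the T-box site, 0.119% the ER stress element, 3.19% the MEF2 site and 1.63% the CArG box. The *Calr* window held a CTCF core match from base -187 to base -176 relative to the start and an ER stress element from base -162 to base -144 on the opposite strand. These 2 matches did not overlap. The *Slc8a1* window held a GATA match from base -68 to base -63, and the *Pln* window held one from base -183 to base -178 on the opposite strand. The *Casq2* window held a MEF2 match from base -69 to base -60. No match to these letters was found in the windows of *Ryr2*, *Jph2* (2 windows) and *Hrc*. The start regions of *Atp2a2* and *Trdn* were not used here. A match describes the letters and does not show that a factor binds there.

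The libraries held between 4294537 and 11629365 reads. Values are read counts that the authors scaled to an effective library size, and 1 read was worth between 0.0901 and 0.231. *Ctcf* itself averaged 121 ± 0.833 in controls (SD, n = 3), 97.3 ± 3.28 among heterozygotes and 81.4 ± 2.85 among homozygotes, and the 3 genotypes did not overlap. Control and heterozygote libraries are listed in the order of their columns, with 8457617, 9654014 and 6698891 reads in controls and 9896345, 7946683 and 4294537 in heterozygotes. Homozygote replicates 1, 2 and 3 held 4437234, 6139084 and 11629365 reads. Differences are log2 fold changes from limma (95% interval in brackets, standard error as SE), with p-values adjusted by the Benjamini-Hochberg method over all 14011 genes, and a gene was called at an adjusted p under 0.05. The labels do not say whether pools of 1 genotype came from separate litters, so the p-values measure the spread between these pools.

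Of the 9 genes, 5 were called between homozygotes and controls, 4 lower and 1 higher. Over all genes tested 15.2% were called, 8.03% lower and 7.19% higher. The median log2 fold change of the 9 genes was -0.37, and that of all genes was -0.0011. The same 5 genes had no overlap between the libraries of these genotypes, which held for 33.2% of all genes. edgeR on the recovered reads also called 5 of the 9, and 15.8% of all genes. Without the mean-variance trend limma called 2 of the 9, and 1196 of all 14011 genes. With values centered on cardiomyocyte contractile genes it called 4 of the 9, and 976 of all genes. In these whole-heart pools, fewer cells of a type and less RNA per cell cannot be told apart.

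**Figure D1:**
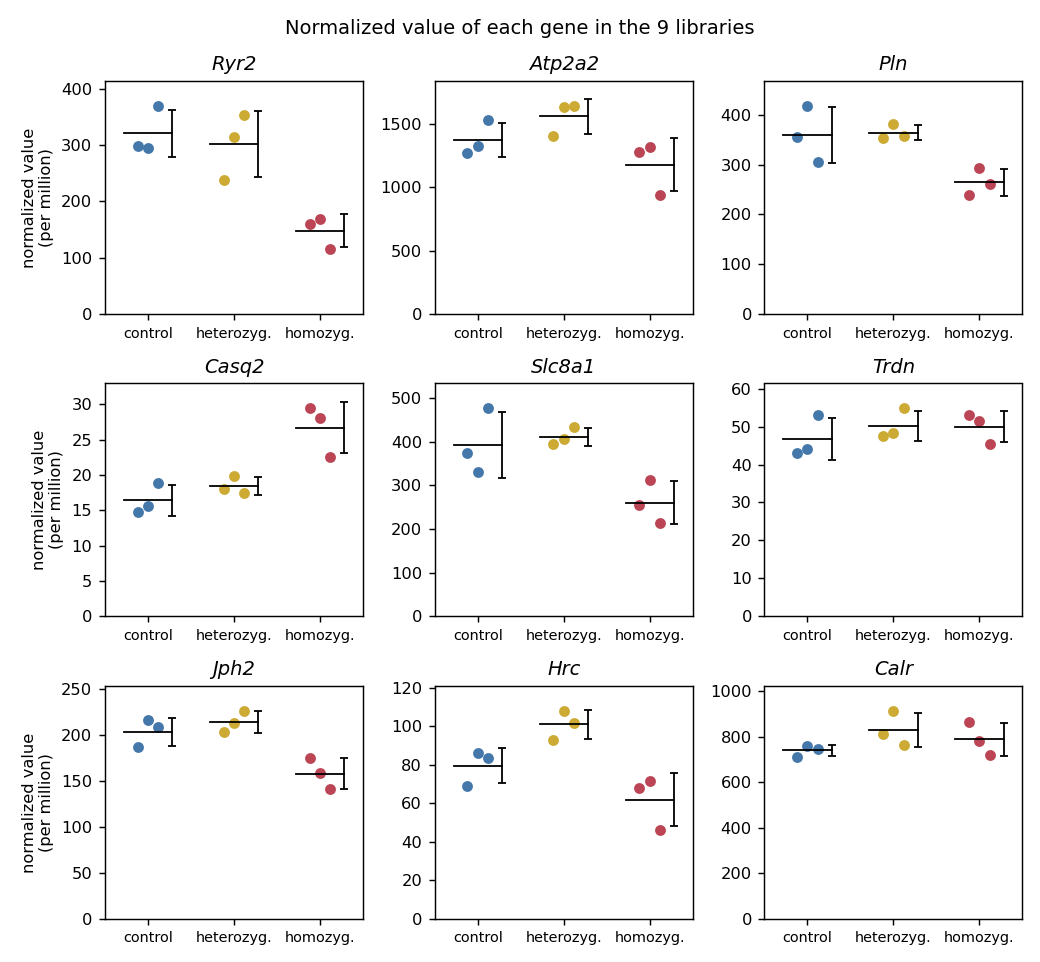
Normalized value (reads scaled to a common library size, linear axis from 0) of each of the 9 genes in each of the 9 libraries, by genotype. Points are libraries, horizontal lines are means and bars are SD (n = 3). The 3 homozygote libraries lie below all control libraries for *Ryr2*, *Pln*, *Slc8a1* and *Jph2* and above them for *Casq2*.

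*Ryr2* (ENSMUSG00000021313, NCBIM37 chr13:11645370-12199212, minus strand) gave the largest difference of the 9 genes. Its values were 298, 296 and 369.9 in controls, 239, 315 and 354 in heterozygotes and 159.8, 169.7 and 115 in homozygotes. Every homozygote library was below every control and heterozygote library, and homozygote replicate 3 was the lowest. Mean values (± SD, n = 3) were 321 ± 42.1 for controls, 302 ± 58.3 for heterozygotes and 148 ± 29.3 for homozygotes. The log2 fold change in homozygotes was -1.13 against controls [-1.45 to -0.80] (SE 0.15, adjusted p = 0.000391 by limma) and -1.03 against heterozygotes [-1.36 to -0.70] (SE 0.15, adjusted p = 0.000962 by limma). The call held in each of 20 settings in both comparisons.

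None of the channel's partners in the SR lumen was called lower against controls. *Casq2* (ENSMUSG00000027861, NCBIM37 chr3:101890338-101950437, plus strand) was the only one of the 9 genes called higher. Its values were 14.7, 15.6 and 18.9 in controls, 18, 19.9 and 17.4 in heterozygotes and 29.4, 28 and 22.6 in homozygotes, from between 75 and 250 reads per library. All homozygote libraries lay above all other libraries, although *Casq2* had the fewest reads of the 9 genes. Mean values (± SD, n = 3) were 16.4 ± 2.22 for controls, 18.4 ± 1.28 for heterozygotes and 26.7 ± 3.62 for homozygotes. The log2 fold change in homozygotes was 0.68 against controls [0.41 to 0.95] (SE 0.13, adjusted p = 0.00327 by limma) and 0.51 against heterozygotes [0.24 to 0.78] (SE 0.13, adjusted p = 0.0167 by limma). The call against heterozygotes was lost without the heterozygote library of 9896345 reads (adjusted p = 0.0507 by limma), the heterozygote library of 4294537 reads (0.0581), homozygote replicate 1 (0.057) or homozygote replicate 2 (0.0546), while the log2 fold change stayed at 0.44 or above.

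*Trdn* (ENSMUSG00000019787, NCBIM37 chr10:32803289-33196515, plus strand), which links calsequestrin to the channel, had values of 43, 44.2 and 53 in controls, 47.6, 48.2 and 54.8 in heterozygotes and 53, 51.5 and 45.3 in homozygotes. The 3 genotypes overlapped. Its log2 fold change against controls was 0.10 [-0.11 to 0.30] (adjusted p = 0.532 by limma). *Hrc* (ENSMUSG00000038239, NCBIM37 chr7:52590660-52594343, plus strand) had values of 69, 86 and 83.7 in controls, 92.9, 108 and 102 in heterozygotes and 67.8, 71.5 and 46.1 in homozygotes. Homozygotes overlapped with controls and lay below all heterozygotes, and heterozygotes lay above all controls. The log2 fold change of *Hrc* in homozygotes was -0.38 against controls [-0.68 to -0.09] (adjusted p = 0.0773 by limma) and -0.73 against heterozygotes [-1.02 to -0.43] (SE 0.14, adjusted p = 0.00402 by limma). Against controls *Hrc* became called without the control library of 8457617 reads (adjusted p = 0.0478 by limma) or without homozygote replicate 2 (0.0382), and without homozygote replicate 3 its log2 fold change was -0.18.

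The junction gene *Jph2* (ENSMUSG00000017817, NCBIM37 chr2:163161978-163223729, minus strand) had values of 186, 215 and 208 in controls, 202, 213 and 226 in heterozygotes and 174, 158 and 140.4 in homozygotes. The homozygote libraries were below all others. *Jph2* changed by a log2 fold of -0.37 against controls [-0.54 to -0.19] (SE 0.08, adjusted p = 0.00891 by limma) and -0.44 against heterozygotes [-0.61 to -0.27] (SE 0.08, adjusted p = 0.00342 by limma). Against controls the call of *Jph2* was lost in limma without the mean-variance trend (adjusted p = 0.0549) and with values centered on cardiomyocyte contractile genes (0.0567), and with that centering it was also lost against heterozygotes (0.106).

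The pump gene *Atp2a2* (ENSMUSG00000029467, NCBIM37 chr5:122903531-122952183, minus strand) had values of 1270, 1322 and 1528 in controls, 1401, 1635 and 1642 in heterozygotes and 1277, 1321 and 939.8 in homozygotes. Homozygote replicate 3 was the lowest library, and the other two homozygote libraries lay within the control range. Its log2 fold change was -0.23 against controls [-0.49 to 0.02] (SE 0.12, adjusted p = 0.211 by limma) and -0.08 without homozygote replicate 3. Against heterozygotes, all of which were higher than the homozygotes, it was -0.42 [-0.67 to -0.16] (SE 0.12, adjusted p = 0.0333 by limma), a call held in 13 of 20 settings. It was lost without homozygote replicate 3, where the log2 fold change of *Atp2a2* was -0.26 (adjusted p = 0.112 by limma), without the heterozygote library of 7946683 reads (0.101) or of 4294537 reads (0.113), and in 4 other settings.

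*Pln* (ENSMUSG00000038583, NCBIM37 chr10:53057492-53065805, plus strand) had values of 355, 418 and 306 in controls, 353, 381 and 358 in heterozygotes and 239.9, 292 and 260.2 in homozygotes. The homozygote libraries lay below all others, with the closest control library 306 and the closest homozygote library 292. For *Pln* the log2 fold change was -0.44 against controls [-0.65 to -0.23] (SE 0.10, adjusted p = 0.00999 by limma) and -0.47 against heterozygotes [-0.68 to -0.25] (SE 0.10, adjusted p = 0.00788 by limma). Without the mean-variance trend *Pln* was not called in either comparison (adjusted p = 0.0618 and 0.0564 by limma), nor against heterozygotes with values centered on cardiomyocyte contractile genes (0.105). The exons of *Pln* overlap those of *Gm10942* on the opposite strand, and whether reads were counted by strand is not given in the sources used here.

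*Slc8a1* (ENSMUSG00000054640, NCBIM37 chr17:81785359-82048947, minus strand) had values of 374, 330 and 476 in controls, 394, 406 and 434 in heterozygotes and 255, 312 and 213 in homozygotes. Again no homozygote library reached the lowest library of the other genotypes. *Slc8a1* changed by a log2 fold of -0.60 against controls [-0.88 to -0.31] (SE 0.13, adjusted p = 0.00924 by limma, and 0.0614 without the trend) and -0.68 against heterozygotes [-0.96 to -0.40] (SE 0.13, adjusted p = 0.00482 by limma). Its exons overlap those of *Gm11096* on the opposite strand.

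*Calr* (ENSMUSG00000003814, NCBIM37 chr8:87365749-87370833, minus strand), the chaperone gene, had values of 709.7, 759.6 and 747 in controls, 813, 912 and 764 in heterozygotes and 863, 779 and 721 in homozygotes. Homozygotes overlapped with both other genotypes. For *Calr* the log2 fold change was 0.09 against controls [-0.08 to 0.26] (adjusted p = 0.494 by limma; -0.05 after quantile normalization) and -0.08 against heterozygotes [-0.24 to 0.09] (adjusted p = 0.576 by limma; 0.12 with values centered on cardiomyocyte contractile genes).

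**Figure D2:**
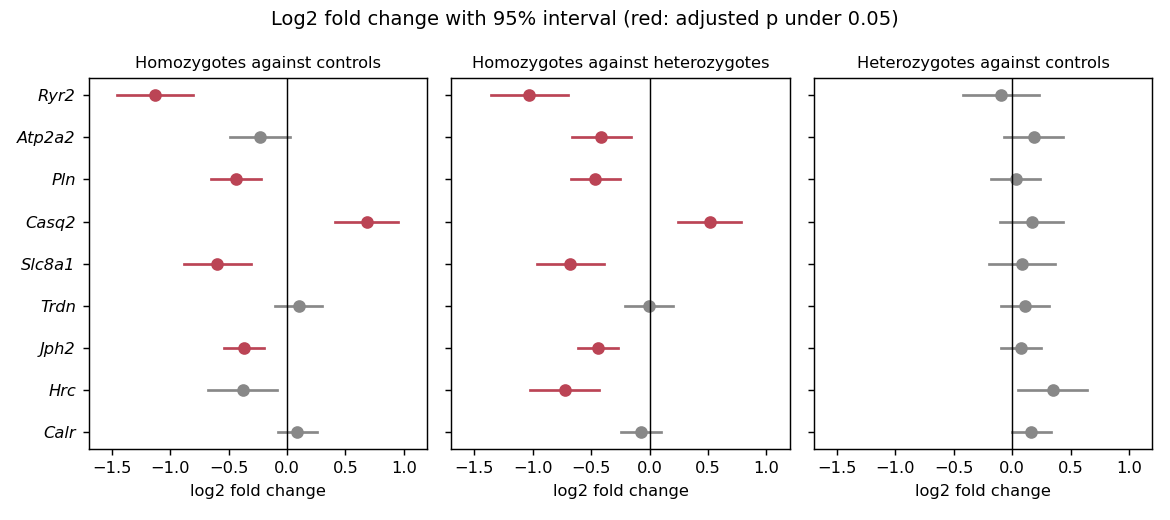
Log2 fold change (x axis) of each gene in 3 comparisons, with the 95% interval from limma as a line. Red marks an adjusted p under 0.05: 5 genes in homozygotes against controls, 7 in homozygotes against heterozygotes and 0 in heterozygotes against controls.

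Against heterozygotes, which share the driver with homozygotes, 7 of the 9 genes were called, 6 lower and 1 higher. Over all genes 13.6% were called, 6.7% lower and 6.87% higher. The same 7 genes had no overlap between the libraries, against 30.8% of all genes. edgeR also called 7 of the 9, and 13.6% of all genes. Without the mean-variance trend limma called 5 of the 9, and 1063 of all 14011 genes. With values centered on cardiomyocyte contractile genes it called 4 of the 9, and 2238 of all genes. The median log2 fold change of the 9 genes was -0.44, and that of all genes was -0.0045. *Trdn* had a log2 fold change of -0.0075 [-0.21 to 0.20], which turned positive in 4 of the settings tried, and with *Calr* made up the 2 genes not called. The comparisons with controls and with heterozygotes share the homozygote libraries and are not independent of each other.

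Between heterozygotes and controls 0 of the 9 genes were called by limma, 0 by edgeR, and 1, *Hrc*, had an unadjusted p under 0.05 by limma. Over all genes 0.143% were called by limma and 0.15% by edgeR. *Hrc* was at 126.9% of the control mean, with a log2 fold change of 0.35 [0.05 to 0.64] (adjusted p = 0.612 by limma). *Hrc* and *Calr* had no overlap between these genotypes, both higher in heterozygotes, against 7.41% of all genes. The intervals for the other genes reached from -0.42 for *Ryr2* to 0.44 for *Atp2a2* and *Casq2*. For *Ryr2* the log2 fold change itself was -0.10.

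The order of abundance within the group was compared per kilobase of exon, since the exonic lengths ran from 2410 bases for *Hrc* to 18191 bases for *Ryr2*. Per kilobase, the control means were 256 ± 9.01 for *Calr*, 242 ± 24.1 for *Atp2a2*, 145 ± 22.7 for *Pln*, 128 ± 24.5 for *Slc8a1*, 47.7 ± 3.56 for *Jph2*, 33 ± 3.83 for *Hrc*, 17.7 ± 2.32 for *Ryr2*, 10.2 ± 1.19 for *Trdn* and 6 ± 0.811 for *Casq2* (SD, n = 3). In this order the control libraries overlapped for *Calr* with *Atp2a2* and for *Pln* with *Slc8a1*, and all other neighbors were apart. In homozygotes the means per kilobase of the last 3 genes were 10.9 ± 0.886 for *Trdn*, 9.74 ± 1.32 for *Casq2* and 8.14 ± 1.61 for *Ryr2* (SD, n = 3). *Ryr2* thus stood last, with libraries that overlapped those of *Casq2*, whereas in controls its lowest library was above the highest of *Trdn*. These values keep the length trend of homozygotes described below, and the order without it was not tested.

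Ratios of 2 genes within a library do not depend on how the libraries are scaled. The ratio of *Ryr2* to *Casq2*, release channel to buffer, was 19.6, 18.4 and 19.1 in the control libraries, 12.9, 15.5 and 19.8 in the heterozygote libraries and 5.36, 5.97 and 5 in the homozygote libraries. Homozygotes were below all others. The log2 difference in homozygotes was -1.81 against controls, or 0.285 of the control ratio, and -1.54 against heterozygotes (exact permutation test, two-sided, p = 0.1 in each, 0.133 after Benjamini-Hochberg adjustment over 4 ratios, and 0.1 is the smallest p that 3 against 3 allows). The ratio of *Ryr2* to *Atp2a2*, release to uptake, was lower by a log2 difference of -0.90 against controls and -0.61 against heterozygotes, again with no overlap (exact permutation p = 0.1 in each). The ratio of *Slc8a1* to *Atp2a2*, extrusion to uptake, differed by -0.37 and -0.26 on the log2 scale with no overlap (exact permutation p = 0.1 in each). The ratio of *Pln* to *Atp2a2*, inhibitor to pump, ran from 0.2 to 0.316 in controls, from 0.218 to 0.252 in heterozygotes and from 0.188 to 0.277 in homozygotes. These ranges overlapped, and the log2 difference was -0.21 against controls (exact permutation p = 0.4) and -0.05 against heterozygotes (exact permutation p = 0.9). When 1 library was left out, these differences ran from -0.40 to -0.07 and from -0.20 to 0.08.

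**Figure D3:**
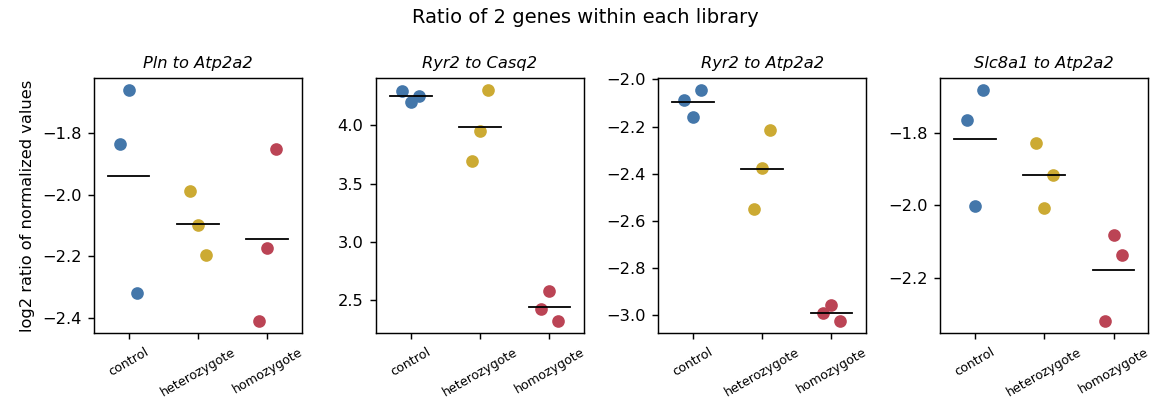
Log2 ratio of the normalized values of 2 genes (y axis, a separate range in each panel that does not start at 0) in each of the 9 libraries, by genotype. Lines are means. The ratio of *Ryr2* to *Casq2* has a mean of 4.25 in controls, 3.98 in heterozygotes and 2.44 in homozygotes on the log2 scale, and the ratio of *Pln* to *Atp2a2* overlaps among the genotypes.

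Log2 fold changes in homozygotes varied with gene length over the whole table. Against controls the median was 0.17 in the tenth of genes with the shortest exons and -0.16 in the tenth with the longest, to which *Ryr2* belongs. With this trend removed in each library, *Ryr2* changed by -0.86, *Slc8a1* by -0.62, *Pln* by -0.49, *Jph2* by -0.35 and *Casq2* by 0.64 on the log2 scale. All 5 remained called by limma, where 9.92% of all genes were called. Against heterozygotes, 6 of the 9 genes remained called after this step, where 10.6% of all genes were, and *Atp2a2* was lost (adjusted p = 0.0591 by limma).

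**Figure D4:**
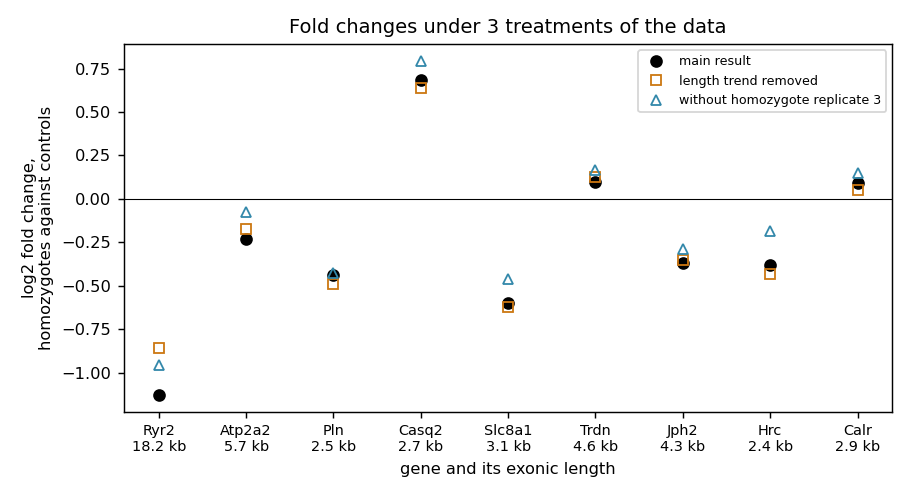
Log2 fold change of each gene in homozygotes against controls (y axis) as reported, with the trend on exonic length removed, and without homozygote replicate 3. Exonic length in kilobases stands under each gene. *Ryr2*, the longest, moves from -1.13 to -0.86 with the trend removed, and *Atp2a2* moves from -0.23 to -0.08 without replicate 3.

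The cardiomyocyte origin of the RNA was checked with 13 contractile genes. Their summed value ran from 23990 to 26960 in controls, from 27230 to 31070 in heterozygotes and from 23870 to 27700 in homozygotes. Homozygotes overlapped with both, and all heterozygote libraries lay above all control libraries. The medians were 26940 in controls, 29550 in heterozygotes and 24860 in homozygotes. In homozygotes against controls 2 of the 13 were higher, *Myl4* and *Tpm1*, and 1 was lower, *Actn2*. Against heterozygotes 3 were lower. Over all genes, 7.19% were called higher and 8.03% lower against controls, and 6.87% higher and 6.7% lower against heterozygotes. Of 6 erythroid genes, 6 were higher in homozygotes against both other genotypes and 0 were called between heterozygotes and controls. Their sum ran from 29020 to 41130 in controls, from 23120 to 38820 in heterozygotes and from 50730 to 66810 in homozygotes. Of 5 epicardial genes, 3 were higher in homozygotes against each other genotype and 0 were called between heterozygotes and controls. The epicardial sums ran from 309 to 364 in controls, from 334 to 364 in heterozygotes and from 447 to 510.1 in homozygotes. Cushion mesenchyme genes summed to between 1893 and 2104 in controls, 1809 and 1934 in heterozygotes and 1335 and 1648 in homozygotes. In homozygotes 2 of the 6 were lower against each other genotype. Of 8 endothelial and endocardial genes, 1 was higher and 2 were lower against controls, and 1 was lower against heterozygotes, with sums from 1098 to 1231 in controls, from 1062 to 1101 in heterozygotes and from 925 to 1111 in homozygotes. None of 5 macrophage genes was called, and their sum ran from 11.5 to 24.1 over all libraries. None of 4 liver and endoderm genes was called by limma in any comparison, and *Foxa2* is not in the table analysed here. Their sums ran from 56.6 to 774 in controls, with a median of 62.9, from 4.84 to 13.8 in heterozygotes and from 5.92 to 70.2 in homozygotes. All heterozygote libraries lay below all control libraries, and 4 of the 4 genes had an unadjusted p under 0.05 by limma in heterozygotes against controls, 1 of 4 in each of the other comparisons. edgeR called 1 of them, *Alb*, higher in homozygotes against heterozygotes (adjusted p = 0.0303 by edgeR) and none in the other comparisons. Of 5 skeletal muscle genes, *Myod1*, *Myf5* and *Myog* are not in that table, and of the other 2, 0 were called against controls and 1, *Acta1*, was lower against heterozygotes. The part of these other cell types in the changes of the 9 genes was not tested.

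A wider list of calcium genes held 66 others, of which 60 were measured. Between homozygotes and controls, 4 of the 60 rose and 12 fell, with a median log2 fold change of -0.03 and 15.2% of all genes called. Against heterozygotes 1 was higher and 12 were lower, with a median of -0.12 and 13.6% of all genes called. The 16 calls against controls became 8 without the control library of 6698891 reads and 10 without homozygote replicate 3. Over all genes the 2133 calls became 1049 and 1267 in the same fits. The 13 calls against heterozygotes became 7 without homozygote replicate 3, 7 without the heterozygote library of 7946683 reads and 6 without that of 4294537 reads. In these fits the calls over all genes went from 1901 to 1023, 1257 and 1223. The split also moved with the processing. Against controls, 3 genes of the list were higher and 4 lower without the mean-variance trend, 3 and 6 with the length trend removed, and 2 and 6 with values centered on cardiomyocyte contractile genes. Against heterozygotes, the same settings gave 1 and 4, 2 and 7, and 4 and 5. Between heterozygotes and controls 0 were called by limma, 0 by edgeR, and 7 had an unadjusted p under 0.05 by limma.

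Among release channels, 2 of 5 were lower in homozygotes in both comparisons. *Ryr3*, a ryanodine receptor found at low level in many tissues, had values of 7.74, 9.4 and 9.43 in controls, 6.52, 10.5 and 7.96 in heterozygotes and 2.61, 7.19 and 3.11 in homozygotes, and 1 homozygote library overlapped with heterozygotes. Its log2 fold change was -1.08 against controls (SE 0.28, adjusted p = 0.0222 by limma). *Itpr1*, an inositol trisphosphate receptor, changed by -0.41 (SE 0.09, adjusted p = 0.0115 by limma). *Ryr3* and *Itpr1*, with exons of 17703 and 10434 bases, are in the tenth of genes with the longest exons. The fold changes here and for the other roles below keep the length trend. *Ryr1*, the skeletal muscle release channel, had low values, with a mean of 1.22 ± 0.312 in controls and 0.703 ± 0.28 in homozygotes (SD, n = 3), and was not called.

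Among 8 partners of the release channel, 1 was lower in both comparisons. *S100a1*, a calcium sensor that binds the release channel and the pump, had values of 19.6, 17 and 17.8 in controls, 11.9, 9.65 and 10 in heterozygotes and 3.29, 4.15 and 5.72 in homozygotes. The 3 genotypes did not overlap. Its log2 fold change in homozygotes was -1.96 against controls (SE 0.17, adjusted p = 1.5e-05 by limma) and -1.20 against heterozygotes (SE 0.17, adjusted p = 0.000929 by limma). Between heterozygotes and controls it was -0.76 (unadjusted p = 0.000745, adjusted p = 0.183 by limma).

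Among 13 pump paralogs and regulators, 2 were higher and 3 lower against controls, and 1 higher and 3 lower against heterozygotes. The lower genes were *Camk2a*, with a log2 fold change of -0.48 against controls and -0.61 against heterozygotes, *Camk2d*, with -0.37 and -0.35, and *Prkaca*, the catalytic subunit of protein kinase A, with -0.26 and -0.25. Of the other genes of the *Camk2* family, *Camk2g* had -0.0363 (adjusted p = 0.767 by limma) and *Camk2b* 0.29 (adjusted p = 0.459 by limma) against controls, and neither was called in either comparison. *Ppp1r3a*, a glycogen-targeting subunit of protein phosphatase, was higher, with 0.58 and 0.53. *Hax1*, which binds phospholamban, was higher against controls (0.28). The pump paralogs *Atp2a1* and *Atp2a3* had control means of 6.94 ± 1.61 and 9.54 ± 0.51 (SD, n = 3), and neither was called. *Sln* is not in the table analysed here.

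No luminal buffer or ER chaperone of the 11 measured was called against controls by limma, and 4 had an unadjusted p under 0.05. Against heterozygotes 2 were lower. These were *Pdia4*, a disulfide isomerase (log2 fold change -0.28, adjusted p = 0.00849 by limma), and *Casq1*, the skeletal muscle calsequestrin (-0.40, adjusted p = 0.0248 by limma). *Casq1* had values of 167, 159.8 and 174 in controls, 190.1, 229 and 232 in heterozygotes and 178, 184 and 134 in homozygotes. Its homozygote libraries overlapped with the controls, and the heterozygotes lay above both.

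Among 7 junction and SR membrane proteins, *Cav3*, the muscle caveolin, was higher against controls (log2 fold change 0.42, adjusted p = 0.0107 by limma) and *Tmem38b*, a cation channel of the SR and ER membrane, was lower (-0.40, adjusted p = 0.0414 by limma). Against heterozygotes none of the 7 was called by limma or by edgeR, and 1 had an unadjusted p under 0.05. There *Cav3* had a log2 fold change of 0.16 (adjusted p = 0.307 by limma) and *Tmem38b* one of -0.36 (adjusted p = 0.068 by limma). *Jph1*, the skeletal muscle junctophilin, had a mean of 3.68 ± 0.902 in controls and 2.7 ± 0.292 in homozygotes (SD, n = 3) and was not called. Of 9 plasma membrane entry and extrusion genes, 4 were lower in each comparison. The calcium channel subunits *Cacna1d* and *Cacna1h* had log2 fold changes of -0.71 and -0.70 against controls and -0.68 and -0.73 against heterozygotes. The plasma membrane pumps *Atp2b1* and *Atp2b4* had -0.28 and -0.36 against controls, where both were called, and -0.27 and -0.28 against heterozygotes, where *Atp2b1* was called. *Slc8a2*, a paralog of *Slc8a1*, was lower against heterozygotes (-0.82, adjusted p = 0.0391 by limma).

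**Figure D5:**
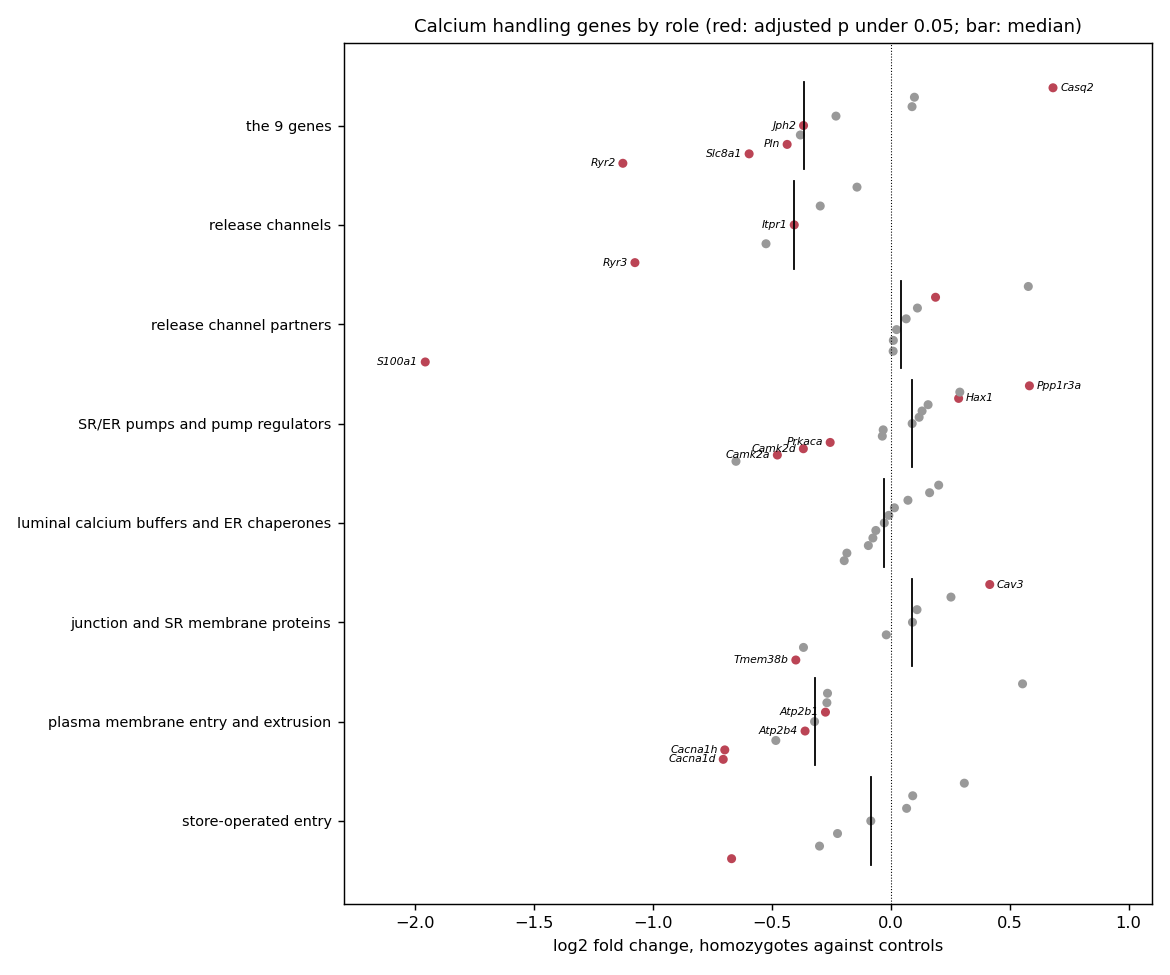
Log2 fold change in homozygotes against controls (x axis) of the 9 genes and of the 60 other calcium genes measured, in rows by role. Points are genes, red marks an adjusted p under 0.05 by limma, bars are medians of each role, and part of the called genes are named. *S100a1* lies farthest to the left at -1.96, *Ryr2* is at -1.13 and *Casq2* farthest to the right at 0.68.

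Among the genes named from this list, exons of *Ryr1*, *Ryr3*, *Atp2a1*, *Cacna1d*, *Cacna1h* and *Casq1* overlap those of another annotated gene on the opposite strand, and exons of *Pdia4* and *Tmem38b* overlap a small RNA gene on the same strand, so their reads could be shared.

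The genes whose pattern over the 9 libraries was most like that of each of the 9 genes were found among 9846 genes, by the root mean square difference of log2 values after each gene's mean was subtracted. For *Ryr2*, whose own SD over the 9 libraries was 0.554, these were *Sorl1* (0.124), *Slit2* (0.141) and *Aldh5a1* (0.171). The closest gene was *Kcnj5* for *Atp2a2* (0.0483), *Mapre2* for *Pln* (0.0693), *Creld2* for *Casq2* (0.107), *Crybg3* for *Slc8a1* (0.0665), *Zbtb22* for *Trdn* (0.0532), *2810432L12Rik* for *Jph2* (0.0301), *Myom1* for *Hrc* (0.1) and *Sfrp1* for *Calr* (0.032). These are descriptions of the libraries, and no test was made.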

How the data were processed

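RNA-seq values were analyzed for 9 libraries. The authors deposited 1 table of normalized signal values for 14011 genes. Each signal value was whole reads plus 0.5, scaled to an effective library size, and whole reads (within 0.01) were recovered for 100% of values. The study's methods name NCBIM37 and Ensembl gene build 65; the submitters' processing notes list CASAVA 1.8, cutadapt 1.6.1, RSEM 1.20, Bowtie2 0.12.7 and limma, with no order. Columns were assigned to genotypes by group averages in the study's supplementary table, which equaled column means for 1998 of 1998 genes in controls and 787 of 787 in heterozygotes. The control columns are named Het, while the sample titles use HET for the heterozygotes with Cre and the heterozygote columns are named DH. The column names thus conflict with the titles, and each control and heterozygote value rests on this assignment.

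Values were analyzed as log2(value + 0.5) with limma 3.58.1 (R 4.3.3), with 9 libraries in 1 fit, a mean-variance trend and Benjamini-Hochberg adjustment. Fold changes are on that log2 scale and understate changes of low genes. Ratios were tested by exact permutation over libraries. Libraries of 1 genotype differed by more than the sampling of reads gives (chi-square over its degrees of freedom, 3.33 to 7.35). The fits were tested on simulated data. Alternatives were other pseudocounts, a filter on low values, fits of only the groups compared, quantile normalization, no trend, edgeR 4.0.16 on recovered reads, removal of the length trend (loess in each library), centering on contractile genes, a replicate block and leaving out each library. The 9 genes, the calcium list and the marker lists were chosen with earlier results of these data known. Calcium genes were named if called in homozygotes in either comparison, and paralogs always, except that some are not reported here. The genes most like each gene needed a mean value of at least 10. Genes were placed and their exons measured with GENCODE M1, and near-identical copies (95% identity over 50% of length, BLAST+ 2.17.0) were found for none of the 9 genes.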

Additional observations from a re-analysis of the deposited data

How the results depend on the processing

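The number of the 9 genes called in homozygotes was recomputed under each alternative. Against controls it was 2 without the mean-variance trend and from 5 to 6 when 1 library was left out. Against heterozygotes it was 4 with values centered on contractile genes and from 5 to 7 when 1 library was left out. *Ryr2*, with log2 fold changes from -1.24 to -0.86 against controls, and *Casq2*, from 0.61 to 0.80, were called in each of the 20 settings. *Ryr2*, *Slc8a1* and *Hrc* were called in each against heterozygotes, and *Atp2a2* was not called against them without the trend (adjusted p = 0.115 by limma) or with centering on contractile genes (0.204). edgeR on the recovered reads called 5 and 7 of the 9 genes. The calcium list gave 7 calls against controls without the trend, 9 with the length trend removed, 8 with centering and from 8 to 17 when 1 library was left out. Against heterozygotes it gave 5 without the trend and from 6 to 14 when 1 library was left out. In heterozygotes against controls it gave 1 in a fit of only these groups and 1 with centering, both times *S100a1*. Counts over all genes without the trend were 1196 against controls and 1063 against heterozygotes, where limma with the trend gave 2133 and 1901. With the length trend removed they were 1387 and 1486, and with centering 976 and 2238. When 1 library was left out they ran from 1049 to 2084 against controls and from 1023 to 1859 against heterozygotes.

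Centering on contractile genes moved the median log2 fold change of all genes to 0.19 in homozygotes against heterozygotes and to -0.16 in heterozygotes against controls, and to 0.04 in homozygotes against controls. In homozygotes against heterozygotes it gave 1998 genes higher and 240 lower over the whole table, where the deposited scaling gave 962 and 939. In heterozygotes against controls it gave 19 higher and 46 lower, where the deposited scaling gave 13 and 7. Beside that median of 0.19, the log2 fold changes of *Ryr2* and *Slc8a1* in homozygotes against heterozygotes were -0.83 and -0.48 with centering.

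Values that changed sign belonged to genes that were not called. *Calr* in homozygotes became -0.0457 against controls after quantile normalization and 0.12 against heterozygotes with centering. *Trdn* in homozygotes against heterozygotes became 0.0219 with the length trend removed, 0.19 with centering and ran from -0.0515 to 0.0602 when 1 library was left out. In heterozygotes against controls, *Ryr2* became 0.0128 with the length trend removed and ran from -0.22 to 0.0618 when 1 library was left out. *Pln* became -0.13, *Slc8a1* -0.0734, *Trdn* -0.0491 and *Jph2* -0.0816 with centering, and when 1 library was left out *Pln* ran from -0.0817 to 0.14 and *Slc8a1* from -0.0358 to 0.23. The *Pln* to *Atp2a2* ratio against heterozygotes ran from -0.20 to 0.0817 when 1 library was left out. The cause of these changes was not tested.

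The numbers of the libraries did not pair them: deviations of same-numbered libraries correlated between -0.043 and 0.085, and not every library correlated best with its own number. With the number as a replicate block, the count of the 9 genes stood at 5 for homozygotes against controls, at 6 against heterozygotes, where *Atp2a2* dropped out (adjusted p = 0.0537 by limma), and at 0 for heterozygotes against controls, and the calcium list gave 12, 10 and 0. Depth limits *Ryr1*, *Sypl2* and other genes with values near 1, which rest on few reads per library.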
